A study of Mus musculus with 8 samples.

Results

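Wnt proteins are secreted, lipid-modified ligands that bind Frizzled receptors on the surface of the same or a neighbouring cell. Together with the co-receptors Lrp5 and Lrp6 they keep beta-catenin from being degraded, and beta-catenin then acts with Tcf and Lef factors in the nucleus, where it raises the transcription of feedback inhibitors such as Axin2. Other Frizzled signals do not pass through beta-catenin. In bone the pathway promotes the formation of osteoblasts, and loss of LRP5 in humans gives a low bone mass. The genes described here are the 19 Wnt ligands, the 10 Frizzled receptors, the co-receptors Lrp5 and Lrp6, the nuclear factors Lef1 and Tcf7, and 5 feedback targets, Axin2, Nkd1, Nkd2, Notum and Apcdd1. They were chosen by family and role, as the rows of the value table with that single gene symbol. Of 38 listed genes 37 were measured, among 19938 genes in all, and Tcf7 was not analysed here.

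RNA of 8 primary osteosarcomas, malignant bone tumours, of C57Bl6 mice was hybridised to 1 array each. In the 4 shRNA OS tumours the p53 genotype was P53.1224, a transgenic hairpin, and in the 4 Cre:lox OS tumours it was P53fl/fl. Within shRNA OS, replicates 1 and 3 were tibial Rbfl/+ tumours, replicate 2 a tibial Rb+/+ tumour and replicate 4 a humeral Rbfl/+ tumour. Within Cre:lox OS, replicates 3 and 4 were tibial Rbfl/+ tumours, replicate 2 a humeral Rbfl/+ tumour and replicate 1 a scapular Rb+/+ tumour. The series title calls the hairpin lineage restricted, and the promoter that drives it or Cre is not given in the sources used here. All values compare tumours with tumours, and normal bone was not analysed here. Values are log2 intensities, on which 1 unit is a factor of 2, and levels are not compared between genes because each is read by its own probe set.

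One array was unlike the rest. That of shRNA OS replicate 2 correlated with the others at 0.941 on average, the remaining 7 at 0.961 to 0.968, and its interquartile range was 2.59, the remaining 7 spanning 2.79 to 3.19. The label of the tissue was set beside osteoblast markers: the mean log2 value of Sp7, Ibsp, Alpl and Col1a1, the 4 of 6 listed that were measured, lay between 12.45 and 12.56 in shRNA OS and between 11.88 and 12.60 in Cre:lox OS. In such bulk tissue, fewer cells of a type and less RNA per cell cannot be told apart.

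Of the 37 measured members 34 had a mean above 6.17, the 25th percentile of gene means used as a filter on dim genes in 1 alternative, and the ligands Wnt1, Wnt3 and Wnt8b did not. Signal over background was not analysed here, so a dim value is not read as absence. Of the ligands Wnt5a, a ligand mostly known for signals outside the beta-catenin branch, had the widest range over the tumours, with values, listed by replicate number here and throughout, of 8.65, 8.14, 9.64 and 7.60 in shRNA OS against 10.30, 8.57, 8.53 and 8.96 in Cre:lox OS. Its highest value was that of the scapular tumour and its lowest that of the shRNA OS humeral tumour, and the models overlapped.

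**Figure D1:**
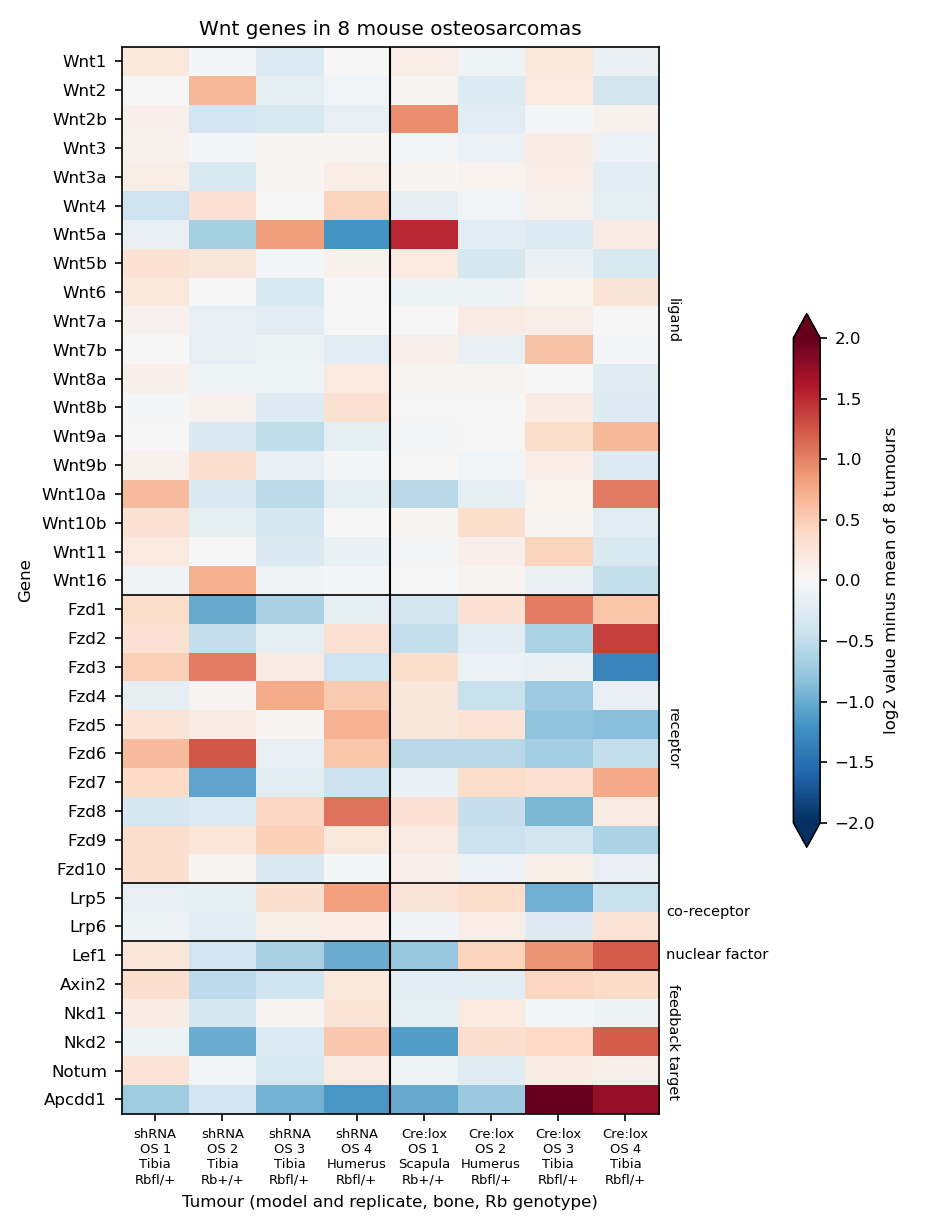
Log2 value minus the mean over the 8 tumours for each of the 37 measured genes (rows, by role) in each tumour (columns; shRNA OS left of the line, Cre:lox OS right of it). The colour scale ends at 2 in both directions. Apcdd1 stands out in Cre:lox OS replicates 3 and 4 and Fzd6 in shRNA OS replicates 1, 2 and 4, while most ligands vary little.

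Between shRNA OS and Cre:lox OS no member passed the threshold after adjustment over all genes. In the limma fit with Benjamini-Hochberg adjustment, 0 of 37 members had an adjusted p under 0.05, where 0.0201% of all genes did. Before adjustment 2 members had a higher mean in shRNA OS at p under 0.05, Fzd6 and Fzd9, beside 3.61% of all genes, and 1 a lower mean, Wnt9a, beside 6.02% of all genes. The groups did not overlap, with shRNA OS higher, for the same 2 receptors, against 2.0% of all genes, and for no member with shRNA OS lower, against 3.44% of all genes. By the sign of the difference, 18 members were higher and 19 lower in shRNA OS. Their median difference was -0.01, against 0.01 over all genes. Of the 10 receptors 7 had a higher mean in shRNA OS and their median difference was 0.50, and of the 19 ligands 8 had a higher mean, with a median of -0.06.

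Fzd6, a Frizzled receptor known in mice for the planar polarity of hair follicles, had the smallest p of the members. Its values were 9.24, 9.86, 8.45 and 9.16 in shRNA OS and 8.06, 8.05, 7.93 and 8.14 in Cre:lox OS. Every shRNA OS tumour lay above every Cre:lox OS tumour, and the 4 Cre:lox OS tumours lay close together. The means were 9.18 ± 0.58 in shRNA OS and 8.05 ± 0.09 in Cre:lox OS (SD, n = 4 each), a difference of 1.13 with an SE of 0.26 and a 95% interval of 0.56 to 1.70, with an adjusted p of 0.205 in limma. It was 1.14 within the tibial tumours (3 shRNA OS and 2 Cre:lox OS) and 1.10 within the others (1 shRNA OS and 2 Cre:lox OS).

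Fzd9, a receptor that mouse osteoblasts need for normal bone formation, read 8.26, 8.16, 8.40 and 8.14 in shRNA OS and 8.10, 7.49, 7.55 and 7.29 in Cre:lox OS. The groups did not overlap, but the Cre:lox OS scapular tumour, at 8.10, lay just under the lowest shRNA OS tumour. The difference was 0.63 with an SE of 0.18 and an adjusted p of 0.292 in limma. Wnt9a, a ligand with a role in the forming joint, read 7.27, 6.99, 6.77 and 7.10 in shRNA OS and 7.23, 7.28, 7.62 and 7.93 in Cre:lox OS. Here shRNA OS replicate 1 and Cre:lox OS replicate 1 overlapped, and the high values were those of the tibial Cre:lox OS tumours. The difference was -0.48 with an SE of 0.19 and an adjusted p of 0.446 in limma.

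Of the other receptors, Fzd3 (0.62), Fzd5 (0.57), Fzd4 (0.56) and Fzd8 (0.44) had higher means in shRNA OS, and Fzd1 (-0.75) and Fzd7 (-0.65) lower means, none with p under 0.05. Fzd2 and Fzd10 differed by -0.02 and 0.02. Among the ligands, differences ran from -0.58 for Wnt5a to 0.29 for Wnt5b, another ligand of the branch outside beta-catenin. Wnt4, the only member read by more than 1 probe set, differed by 0.16 and 0.40 on its 2 probe sets.

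**Figure D2:**
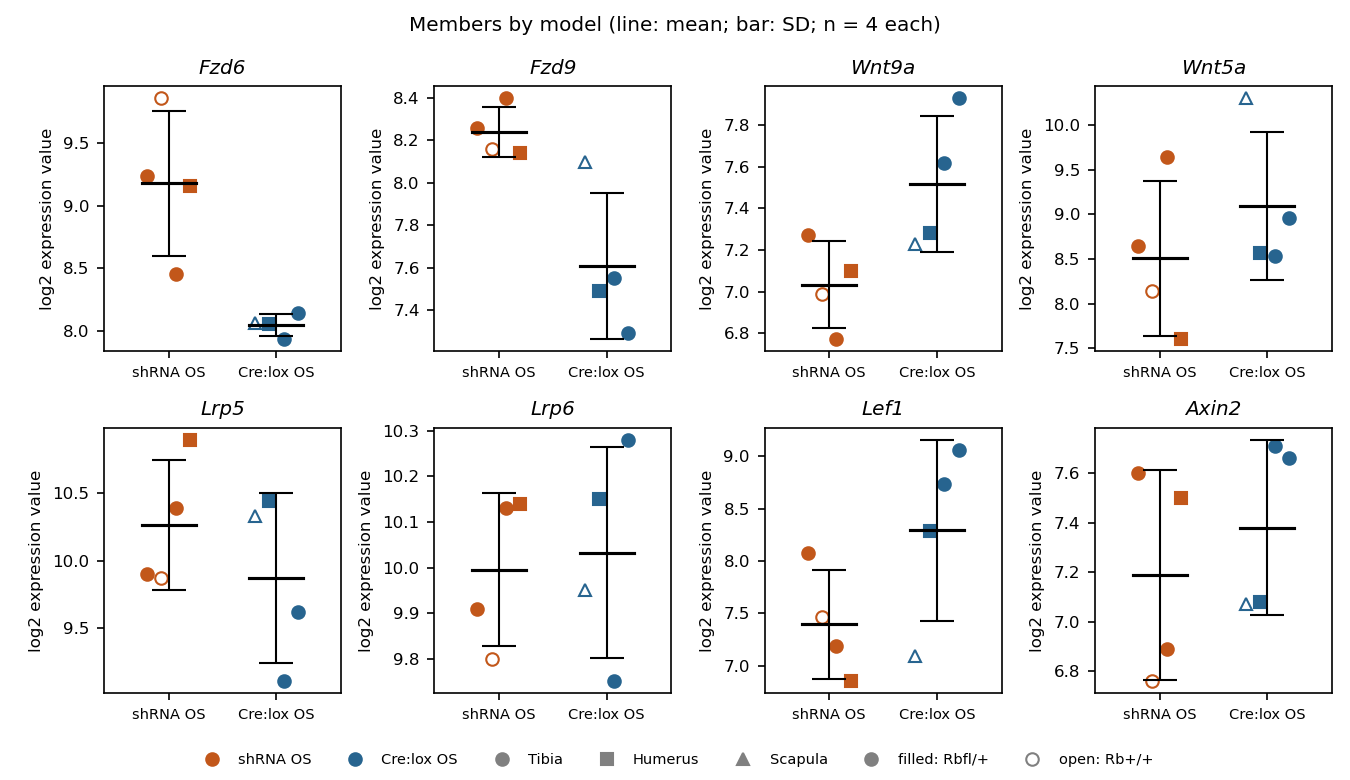
Log2 values of 8 members in the 4 shRNA OS tumours (left in each panel) and the 4 Cre:lox OS tumours (right). Each point is a tumour, its shape gives the bone and an open point marks Rb+/+; lines are means and bars SD. The models are apart for Fzd6 and Fzd9 and overlap for the other 6 genes.

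Readouts further down the pathway overlapped between the models. Axin2, a scaffold of the beta-catenin destruction complex and a common transcriptional readout of the pathway, read 7.60, 6.76, 6.89 and 7.50 in shRNA OS and 7.07, 7.08, 7.71 and 7.66 in Cre:lox OS. Both models held high and low tumours, and the difference was -0.19 with an SE of 0.24 and an interval of -0.73 to 0.35 (adjusted p of 0.874, limma). Lef1, the nuclear partner of beta-catenin, read 8.08, 7.46, 7.19 and 6.85 in shRNA OS and 7.09, 8.29, 8.73 and 9.06 in Cre:lox OS. The 3 Cre:lox OS tumours that were not scapular lay above every shRNA OS tumour, and the scapular one lay among the low values. The difference was -0.90 with an SE of 0.41 and an adjusted p of 0.531 in limma.

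The co-receptor Lrp5 read 9.90, 9.87, 10.39 and 10.89 in shRNA OS and 10.33, 10.44, 9.11 and 9.62 in Cre:lox OS, with a difference of 0.39, an SE of 0.33 and an adjusted p of 0.785 in limma. Without Cre:lox OS replicate 3 it was 0.13 and without shRNA OS replicate 4 it was 0.18. Its close relative Lrp6 lay between 9.80 and 10.14 in shRNA OS and between 9.75 and 10.28 in Cre:lox OS and differed by -0.04 with an interval of -0.39 to 0.31. Under quantile normalization that sign turned, to 0.02, and among Rbfl/+ tumours alone the difference was 0. Of the feedback targets, Nkd1, Notum, Nkd2 and Apcdd1 differed by 0.06, 0.04, -0.41 and -1.60. Apcdd1, a membrane protein that inhibits Wnt signals, read 7.70, 8.04, 7.48 and 7.26 in shRNA OS and 7.41, 7.68, 11.60 and 10.18 in Cre:lox OS. Its difference between the models came with an interval of -3.43 to 0.23, since only the tibial Cre:lox OS tumours were high.

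The number of members at p under 0.05 depended on how bone site and Rb genotype entered the fit. With site as a covariate it was 10 of 37 (27.0%, against 10.9% of all genes) in place of 3, and among tibial tumours alone it was also 10 (27.0%, against 6.91%). None of these members passed the adjusted threshold. The added members in the fit with site were Fzd5 (0.78), Lrp5 (0.62), Fzd4 (0.65), Apcdd1 (-2.13), Lef1 (-1.15), Fzd7 (-0.72) and Fzd1 (-0.84). With Rb genotype as a covariate the count was 6 (16.2%, against 10.2%), and among Rbfl/+ tumours alone 9 (24.3%, against 8.71%). Leaving out the scapular tumour gave 11 members (29.7%, against 9.27% of all genes). That tumour is also the Rb+/+ tumour of Cre:lox OS, so its site and its Rb genotype cannot be told apart. Leaving out shRNA OS replicate 1 gave 7 (18.9%, against 12.1%) and leaving out Cre:lox OS replicate 2 gave 5 (13.5%, against 7.73%). Leaving out shRNA OS replicate 3, Cre:lox OS replicate 3 or Cre:lox OS replicate 4 gave 2 each (5.41%), as Wnt9a then missed p under 0.05. The shares of all genes were then 8.71%, 8.97% and 8.23%. Leaving out shRNA OS replicate 2 also gave 3 (8.11%, against 8.49%), but these were Fzd6, Fzd9 and Fzd4, and Wnt9a missed there too. Leaving out shRNA OS replicate 4 gave 4 (10.8%, against 7.22%).

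**Figure D3:**
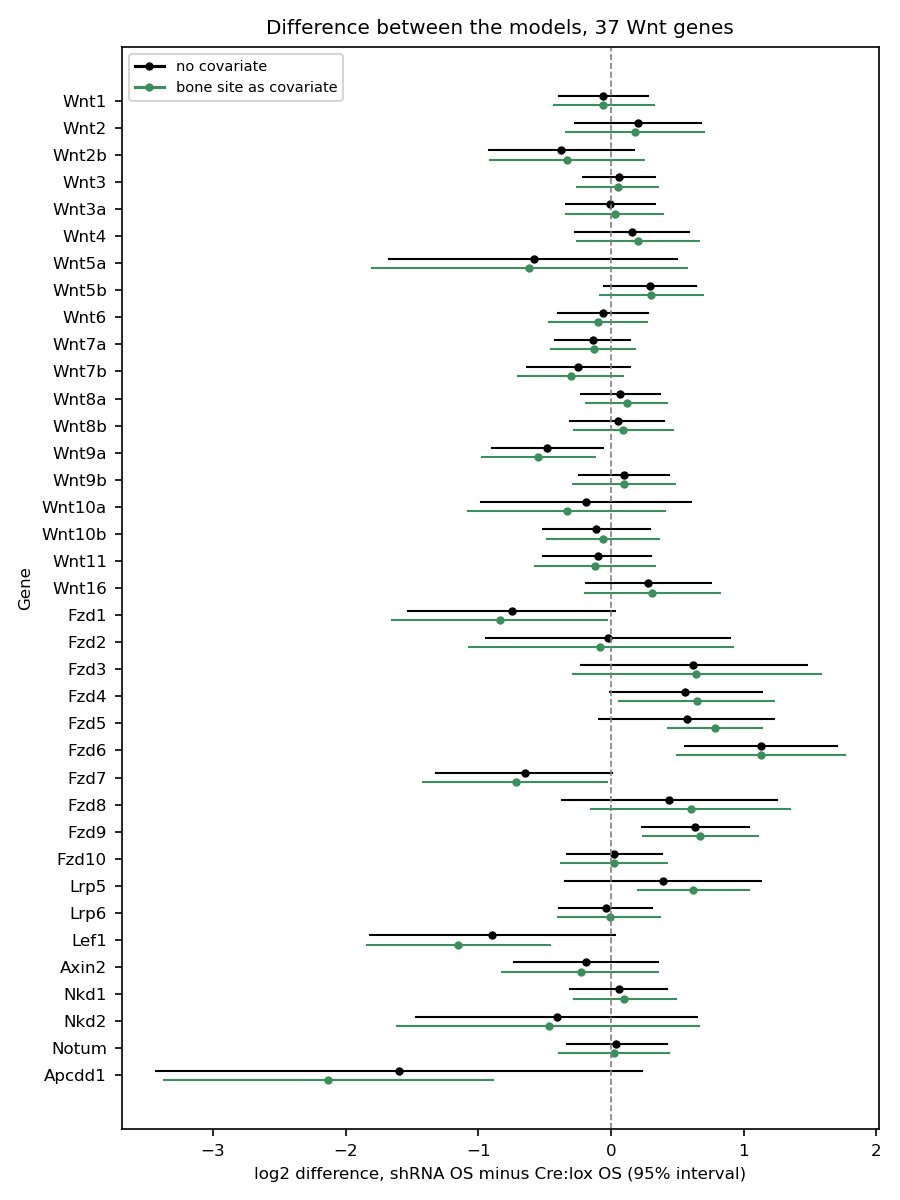
Difference in log2 value, shRNA OS minus Cre:lox OS, with its 95% interval for each of 37 members, from the limma fit without a covariate (black) and with bone site as a covariate (green). Most intervals hold 0; those of Fzd6 and Fzd9 lie above 0 and that of Wnt9a below 0 in both fits, and those of Fzd5, Lrp5, Lef1 and Apcdd1 are among those that exclude 0 only in the fit with site.

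Some marker lists of other cells were shifted between the models too. The mean of 5 of 5 fibroblast markers lay between 8.85 and 9.08 in shRNA OS and between 9.58 and 10.39 in Cre:lox OS. The models did not overlap in this mean, nor in Col3a1, Fbln1 and S100a4, each higher in Cre:lox OS. Dpt (8.24 to 9.7 against 8.12 to 9.06) and Pdgfra (10.55 to 11.41 against 10.36 to 11.42) overlapped. The mean of 4 of 4 osteocyte markers, of which Sost is also a Wnt antagonist, lay between 8.19 and 9.53 in shRNA OS. In Cre:lox OS it lay between 6.99 and 8.40. Of these markers Phex was apart, at 11.08 or more in shRNA OS and 10.62 or less in Cre:lox OS. Dmp1, Mepe and Sost overlapped, and Mepe was highest in Cre:lox OS replicate 1 (7.92). On this log2 scale no marker is at 0. Their part in the differences of Fzd6, Fzd9 and Wnt9a was not tested.

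Genes next to Fzd6 on chromosome 15 mostly had higher means in shRNA OS as well. Of the 10 measured genes on each side, 17 of 20 had a higher mean in shRNA OS, and their median difference was 0.40. Each tumour's median deviation over these 20 genes was 0.16, 0.35, -0.05 and 0.30 in shRNA OS and -0.09, -0.15, -0.27 and -0.44 in Cre:lox OS. The order matches that of Fzd6 in that shRNA OS replicate 2 was highest and replicate 3 lowest within shRNA OS, but replicates 1 and 4 were in the opposite order, and the 4 Cre:lox OS tumours spread more here than at Fzd6. Replicate 2 is the tumour whose array was unlike the rest. Its largest deviations among the neighbours were those of Cthrc1 (-2.977), Gm16294 (1.793) and Odf1 (1.185). Without replicate 2 the count was again 17 of 20 neighbours higher in shRNA OS, with a median difference of 0.41. The genes were not the same 17, as Cthrc1 turned higher and Odf1 lower. Fzd6 itself then differed by 0.90. Over all genes 51.9% had a higher mean in shRNA OS, and 48.2% without replicate 2. Examples of neighbours higher in shRNA OS are Azin1, an inhibitor of antizyme (0.99), the mitochondrial carrier Slc25a32 (0.99) and the ribosome assembly factor Dcaf13 (0.91). Cthrc1, the next gene, differed by -0.14. It read 12.44, 7.77, 11.79 and 10.70 in shRNA OS and 10.69, 10.46, 11.62 and 10.49 in Cre:lox OS. In shRNA OS its low value was that of replicate 2 alone. The bordering genes of Fzd9 differed by a median of 0 with 10 of 20 higher (15 of 20 and 0.05 without shRNA OS replicate 2), and those of Wnt9a by 0.01 with 11 of 20 higher. Around Wnt16, 19 of 20 genes were higher in shRNA OS with a median difference of 0.18, but the tumours' deviations were -0.13, 0.44, -0.02 and 0.01 in shRNA OS, and without replicate 2 the count was 13 of 20 and the median difference 0.06. Around Fzd7, 2 of 20 were higher in shRNA OS, with a median of -0.20. The part of these neighbourhoods in the members' own differences was not tested.

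**Figure D4:**
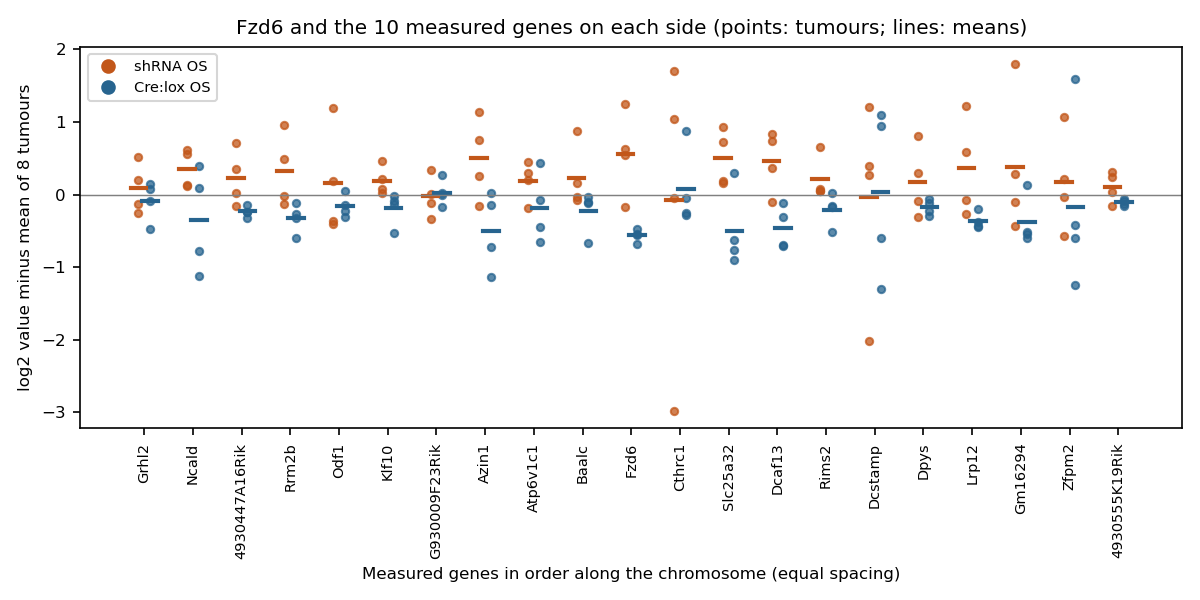
Log2 value minus the mean over the 8 tumours for Fzd6 and the 10 measured genes on each side, in their order along chromosome 15 with equal spacing. Points are tumours and lines the means of shRNA OS (orange) and Cre:lox OS (blue). The shRNA OS mean lies above the Cre:lox OS mean at Fzd6 and at 17 of the 20 neighbours.

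Around these members, 60 of 62 other genes of the pathway were measured. At p under 0.05 before adjustment 8 of the 60 were higher in shRNA OS, where 3.61% of all genes were, and 4 were lower, where 6.02% were. Of the 60, 0 passed the adjusted threshold. Wls, the carrier that brings Wnt ligands to the cell surface, averaged 10.18 ± 0.35 in shRNA OS and 10.95 ± 0.22 in Cre:lox OS (SD, n = 4 each), with no overlap, and differed by -0.78 (adjusted p of 0.239, limma). Of the secreted antagonists, Sfrp2 differed by -1.66, Sfrp1 by -0.90, Wif1 by 1.98, Sost by 1.18 and Dkk1 by 2.05. Dvl2, a Dishevelled protein that relays the receptor's signal, differed by -0.54 with no overlap between the models. Rspo2, an R-spondin that strengthens Wnt signals, differed by 1.02, the R-spondin receptor Lgr4 by 0.87, the co-repressor Tle2 by 0.64 and the targets Bambi and Tnfrsf19 by 0.46 and 0.86. Over all 60 genes 32 were higher and 28 lower in shRNA OS, with a median difference of 0.04, against 0.01 over all genes.

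Bone site was compared as tibia (n = 5) against humerus or scapula (n = 3), with the model as a covariate. No member passed the adjusted threshold, where 0% of all genes did, and the smallest adjusted p of a member was 0.616 in limma. Before adjustment Apcdd1 and Lef1 had higher values in tibial tumours at p under 0.05, beside 2.32% of all genes, and Fzd5 and Lrp5 lower values, beside 3.33% of all genes. Without the model as a covariate Lrp5 alone stayed under that p (-0.77), and Fzd5 (-0.64), Apcdd1 (1.55) and Lef1 (0.69) did not. Fzd5, a receptor needed for the maturation of intestinal Paneth cells in mice, read 9.01, 8.91, 8.76, 7.94 and 7.90 in the tibial tumours and 9.43, 8.97 and 9.02 in the others. The 2 tibial Cre:lox OS tumours were lowest, and of the tibial shRNA OS tumours 1 lay within the range of the others. The difference was -0.85 with an SE of 0.16, a p of 5.78e-04 and an adjusted p of 0.616 in limma, and it was -0.54 among shRNA OS tumours and -1.08 among Cre:lox OS tumours.

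Lrp5 read 9.90, 9.87, 10.39, 9.11 and 9.62 in the tibial tumours and 10.89, 10.33 and 10.44 in the others. Only shRNA OS replicate 3 among the tibial tumours reached into the range of the others. The difference was -0.94 with an SE of 0.19 (adjusted p of 0.616, limma), and -0.83 among shRNA OS tumours and -1.02 among Cre:lox OS tumours. Lef1 differed by 1.00 with an SE of 0.31 (adjusted p of 0.697, limma), and was 0.72 higher in tibial tumours among shRNA OS and 1.20 higher among Cre:lox OS. For Apcdd1 the difference was 2.12 with an SE of 0.57 (adjusted p of 0.681, limma), but 0.48 among shRNA OS tumours and 3.35 among Cre:lox OS tumours. Leaving out 1 tumour at a time moved the value of Apcdd1 between 1.49 and 3.35, the largest move among members with p under 0.05 here. The 3.35 came without the shRNA OS humeral tumour. Only Cre:lox OS tumours are then left outside the tibia, so it is the Cre:lox OS value again. Within shRNA OS each of these values rests on 1 tumour outside the tibia. Axin2 differed by 0.17 with an SE of 0.27 and Lrp6 by -0.11 with an SE of 0.17.

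The tibial Cre:lox OS tumours, in which Apcdd1 and Lef1 were highest and Fzd5 and Lrp5 lowest, also stood at the end of several marker lists. Cre:lox OS replicates 3 and 4 had the lowest osteoblast marker means (12.16 and 11.88), the highest fibroblast marker means (9.93 and 10.39) and the highest means of 4 of 4 macrophage markers (11.19 and 11.34). None of these 3 lists moved as one. Of the fibroblast markers, Dpt (8.12) and Pdgfra (10.36) were lowest of all 8 tumours in Cre:lox OS replicate 3. Of the osteoblast markers, Col1a1 in that replicate (13.55) lay above every shRNA OS tumour. Of the macrophage markers, Cd68 in Cre:lox OS replicates 3 and 4 (11.86 and 11.91) lay below shRNA OS replicate 3 (12.33). Adgre1 in Cre:lox OS replicate 3 (10.98) lay below shRNA OS replicate 1 (11.19). Across the site groups, 4 of 4 adipocyte markers averaged 7.39 to 7.64 in tibial tumours and 7.87 to 8.15 in the others. Of these, Pparg (7.89 to 8.77 against 9.31 to 9.98) and Fabp4 (8.76 to 9.54 against 9.62 to 10.67) were apart. Adipoq (5.15 to 5.94 against 5.18 to 5.63) and Plin1 (6.81 to 7.16 against 6.90 to 7.08) overlapped. The osteoblast markers averaged 11.88 to 12.51 in tibial tumours and 12.53 to 12.60 in the others. The site groups nearly met in this mean and overlapped in each of its markers. These were Sp7 (9.32 to 10.6 against 10.19 to 10.63) and Ibsp (12.91 to 13.43 against 13.35 to 13.52). The same held for Alpl (12.18 to 12.91 against 12.82 to 13.19) and Col1a1 (13.0 to 13.55 against 13.38 to 13.61). The 4 of 4 osteoclast markers ran from 9.07 to 11.57 in tibial tumours, with 9.94 and 9.93 in the tibial Cre:lox OS tumours, and from 10.98 to 11.44 in the others. The part of these cells in the differences was not tested. Among the 60 other pathway genes 1 had a higher value in tibial tumours at p under 0.05 before adjustment, where 2.32% of all genes did, and 7 a lower value, where 3.33% did. Lower were Tcf7l1, a mostly repressive Tcf factor (-0.80), Lgr4, a receptor of R-spondins (-0.96), Myc (-0.73), Dvl3 (-0.53), Ctnnb1, which encodes beta-catenin (-0.49), Pygo2 (-0.42) and Tle3 (-0.39), and higher was Kremen1, a receptor for Dkk1 (0.70). None had an adjusted p under 0.05.

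Rb genotype was compared as Rbfl/+ (n = 6) against Rb+/+ (n = 2), again with the model as a covariate. Each model held 1 Rb+/+ tumour, and that of shRNA OS was replicate 2, whose array stood apart. No member passed the adjusted threshold, where 0% of all genes did, and the smallest adjusted p of a member was 0.836 in limma. Before adjustment 3 members had higher values in Rbfl/+ tumours at p under 0.05, Nkd2, Fzd1 and Fzd7, beside 3.09% of all genes. Lower were 3 members, Fzd3, Wnt16 and Wnt2, beside 1.64% of all genes. With 1 Rb+/+ tumour left out, the fit compares only the other one with the Rbfl/+ tumours of its own model. Nkd2, Fzd1, Fzd7 and Fzd3 then differed by 1.77, 1.00, 0.60 and -0.87 without shRNA OS replicate 2. Without the scapular tumour they differed by 1.06, 0.86, 0.97 and -0.95. The genotypes did not overlap for Nkd2 and Nkd1, which were higher in Rbfl/+ tumours, against 2.31% of all genes, and for no member in the other direction, against 2.33% of all genes.

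Nkd2, which binds Dishevelled and dampens Wnt signals, read 8.55, 8.37, 9.19, 8.98, 9.04 and 9.86 in the Rbfl/+ tumours and 7.65 and 7.53 in the Rb+/+ tumours. Both Rb+/+ tumours lay below all others. The difference was 1.41 with an SE of 0.31, a p of 0.0016 and an adjusted p of 0.836 in limma, and it was 1.06 among shRNA OS tumours and 1.77 among Cre:lox OS tumours. Its relative Nkd1 read 7.21 to 7.59 in the Rbfl/+ tumours and 6.98 and 7.12 in the Rb+/+ tumours, a difference of 0.35 with an SE of 0.16, and of 0.21 without shRNA OS replicate 2. Axin2 differed by 0.49 with an SE of 0.24 and Notum by 0.10 with an SE of 0.20. Apcdd1 differed by 0.92 with an SE of 0.94, but by -0.57 among shRNA OS tumours and 2.41 among Cre:lox OS tumours.

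Fzd1 read 8.40 to 10.08 in the Rbfl/+ tumours and 8.04 and 8.68 in the Rb+/+ tumours, and differed by 0.93 with an SE of 0.28. Fzd7, a receptor known for its role in intestinal stem cells, read 8.38 to 9.56 in the Rbfl/+ tumours and 7.75 and 8.68 in the Rb+/+ tumours and differed by 0.79 with an SE of 0.24. For both, the Rb+/+ tumour of Cre:lox OS lay within the range of the Rbfl/+ tumours. Fzd3, a receptor of axon guidance, differed by -0.91, Wnt16, a ligand that maintains cortical bone in mice, by -0.48, and Wnt2 by -0.47. Wnt16 and Wnt2 were both highest in shRNA OS replicate 2, at 7.35 and 7.06. Without that tumour their differences were -0.19 and -0.20, which are those among Cre:lox OS tumours alone. Lef1 differed by 0.76 with an SE of 0.43, and by -0.08 without the scapular tumour, which is the difference among shRNA OS tumours alone. Lrp5 differed by -0.04 and its sign turned with the setting, at 0.01 under median centring and 0.12 with site added, while Lrp6 differed by 0.18. Of the marker lists, macrophage means ran from 9.71 to 11.34 in Rbfl/+ tumours and were 9.91 and 10.25 in Rb+/+ tumours. Osteocyte means ran from 6.99 to 9.53 in Rbfl/+ tumours and were 8.69 and 8.40 in Rb+/+ tumours, and osteoclast means ran from 9.07 to 11.57 in Rbfl/+ tumours and were 11.00 and 10.98 in Rb+/+ tumours. Their part in these differences was not tested. Of the 60 other pathway genes Tle4 (0.46) and Ror2, a Wnt5a receptor (0.36), were higher in Rbfl/+ tumours at p under 0.05 before adjustment, where 3.09% of all genes were, and 0 lower, where 1.64% were.

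**Figure D5:**
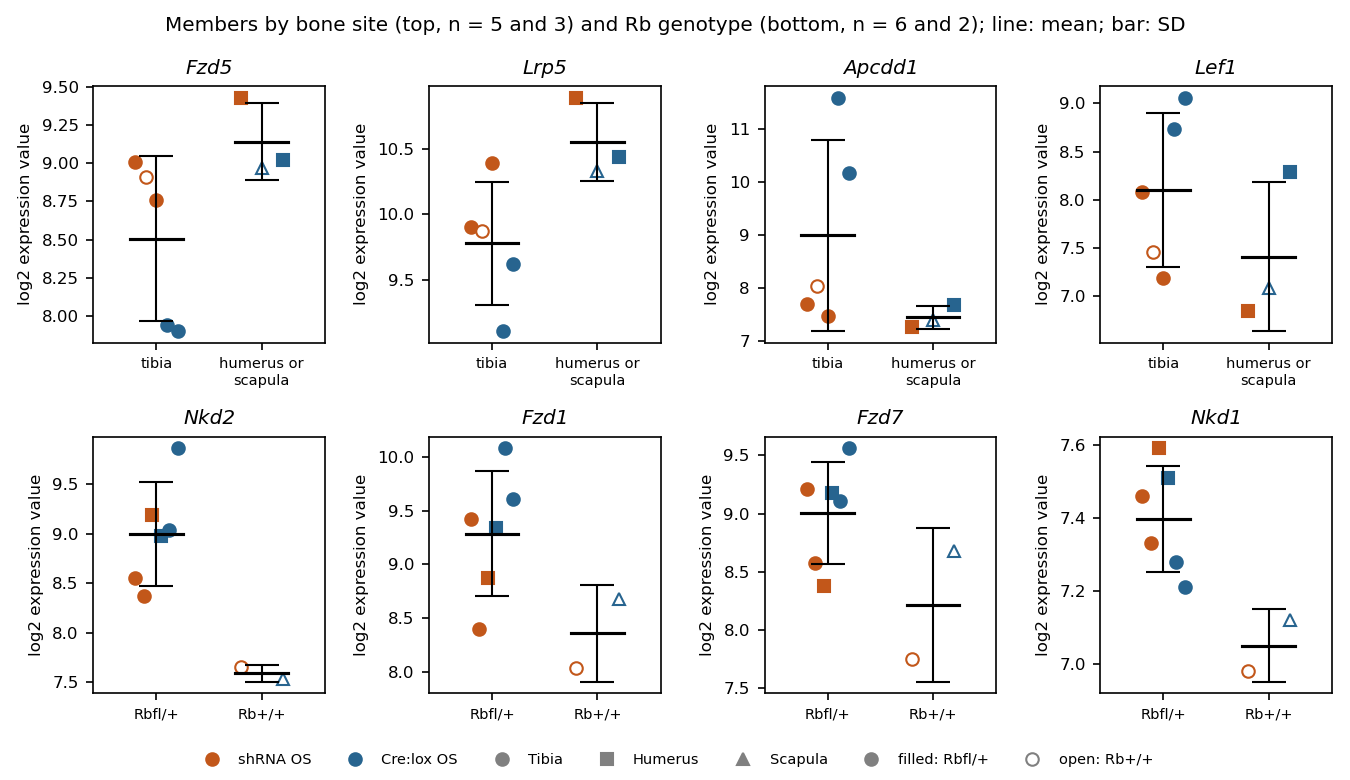
Log2 values of 4 members by bone site (top; tibia left, humerus or scapula right; n = 5 and 3) and of 4 members by Rb genotype (bottom; Rbfl/+ left, Rb+/+ right; n = 6 and 2). Orange points are shRNA OS and blue points Cre:lox OS, open points are Rb+/+, lines are means and bars SD. For Nkd2 and Nkd1 both Rb+/+ tumours lie below all Rbfl/+ tumours, and Apcdd1 is above 10 in the 2 tibial Cre:lox OS tumours.

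Across the 8 tumours, Axin2 was compared with 5 members downstream of Wnt signals. With Notum, an enzyme that removes the lipid of Wnt ligands, Pearson's r was 0.82 (exact permutation p of 0.0222, adjusted over the 5 relations 0.111) and Spearman's rho 0.64 (exact permutation p of 0.0962, adjusted 0.22). For Notum, Pearson's r was 0.93 without the 2 tumours farthest from the median of Axin2 and 0.88 after centring within each model. With Nkd2 r was 0.73 (exact permutation p of 0.0447, adjusted 0.112) and rho 0.76 (exact permutation p of 0.0368, adjusted 0.184). For Nkd2, Pearson's r was 0.63 without those 2 tumours and 0.71 after centring within each model. For Lef1 and Nkd1 r was 0.57 and 0.42 (exact permutation p of 0.142 and 0.297, adjusted 0.178 and 0.297) and rho 0.60 and 0.29 (exact permutation p of 0.132 and 0.501, adjusted 0.22 and 0.501). Without those 2 tumours r was 0.46 for Lef1 and 0.19 for Nkd1, and after centring within each model 0.52 and 0.48. For Apcdd1, whose 2 high tumours stand apart, only the rank correlation is given, a rho of 0.48 (exact permutation p of 0.243, adjusted 0.304). None passed adjustment over the 5 relations, and all 5 share the same 8 arrays.

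Promoter letters were searched for the core of Tcf and Lef sites, CTTTGAT or CTTTGAA on either strand, in RefSeq windows of 300 bases (build GRCm38.p6) that run from 250 bases before to 50 after a gene's start. Of the members, 26 genes had 33 windows. The rest, Fzd6 and Lrp5 among them, had no window and were not searched. Of the 33 windows 2 held the letters (6.06%), against 2842 of 32851 windows of all genes (8.65%). The 2 ligands concerned are shown by the 100 bases around the match, lower case with the match in capitals, Wnt5b at chr6:119449408-119449507 on the minus strand and Wnt11 at chr7:98835011-98835110 on the plus strand, where the match lies on the opposite strand and so reads ATCAAAG.
Wnt5b: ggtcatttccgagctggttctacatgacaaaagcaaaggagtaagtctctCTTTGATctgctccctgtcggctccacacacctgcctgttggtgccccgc
Wnt11: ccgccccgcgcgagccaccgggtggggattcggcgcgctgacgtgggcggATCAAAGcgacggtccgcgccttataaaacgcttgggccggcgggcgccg
Both matches lie upstream of the start. Wnt5b and Wnt11 differed by 0.29 (interval -0.05 to 0.64) and -0.10 (interval -0.51 to 0.30) between shRNA OS and Cre:lox OS. A match is a description of letters and shows no binding, and windows without it show only that these letters are not in them.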

How the data were processed

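RNA of 8 tumours was hybridised to 1 array each. The deposited values are log2 values that the authors computed with RMA, per the submitters' processing notes, which name the build mm9. Each array held 35556 probe sets, with values between 2.53 and 14.57 and no filter given in the sources used here. Scanner intensities, detection calls and scan dates were not used here.

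Of the probe sets 21789 had 1 gene symbol in the platform annotation, which gave 19938 genes, each represented by the probe set of highest mean. Differences were fitted over all genes with limma 3.58.1 (lmFit, eBayes) in R 4.3.3, p-values adjusted by Benjamini-Hochberg and read at 0.05. The model comparison had no covariate, and those of site and Rb genotype had the model as a covariate. The fit was tested on simulated data. Nothing beyond tumour numbers says the replicates are separate animals, so p-values measure the spread between these samples.

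The members, pathway lists and marker lists were chosen with earlier results of these data known. Named in full were members with unadjusted p under 0.05 or groups without overlap, and Axin2, Lef1, Lrp5 and Lrp6 always. Beyond that rule, Wnt5a, Fzd4 and other receptors and targets were named by role after their values were seen. Other pathway genes were named at unadjusted p under 0.05, at most 8 per comparison, with Dvl2, Sfrp1, Tnfrsf19 and Lgr4 added between the models after their values were seen. Neighbours came from a gene table of another build, GRCm38.p6, used for names and order. Correlations used Python 3.11.15 and scipy 1.17.1 over all arrangements of the tumours. Alternatives were quantile normalization, median centring, leaving out dim genes, the mean of probe sets, eBayes with trend and robust, other covariates, subsets of tumours and leaving out each tumour. Protein sequences were not used here.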

Additional observations from a re-analysis of the deposited data

Results flagged for a closer look

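In 2 of 74 groups of 4 tumours, each 1 member in 1 model, the most distant tumour was separated from its nearest neighbour by more of the group's range than Dixon's 95% critical value allows. Chance alone gives about 1 in 20 such groups. Wnt16 stood at 7.35 in shRNA OS replicate 2, where the other 3 shRNA OS tumours lay between 6.57 and 6.62. After quantile normalization it still stood apart, at 7.34 against 6.58 to 6.62. Wnt8a, a ligand of the early embryo, stood at 6.22 in Cre:lox OS replicate 4, where the other 3 Cre:lox OS tumours lay between 6.48 and 6.52. After quantile normalization it no longer stood apart, at 6.33 against 6.41 to 6.59. Quantile normalization of these 2 members was chosen as a check after seeing the data.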

How the results depend on the processing

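In every alternative run, 0 members had an adjusted p under 0.05 in any of the 3 comparisons. The number of members with p under 0.05 before adjustment between the models was 3 (8.11%, against 9.63% of all genes). It was 6 with Rb genotype as a covariate (16.2%, against 10.2%) and 10 with site as a covariate (27.0%, against 10.9%). It was 9 among Rbfl/+ tumours only (24.3%, against 8.71%) and 10 among tibial tumours only (27.0%, against 6.91%). With 1 tumour left out it ran from 2 to 11 (5.41% to 29.7%), against 7.22% to 12.1% of all genes. For site the number was 4 (10.8%, against 5.64% of all genes), and 1 (2.7%, against 3.46%) without the model as a covariate, with Lrp5 the member left. For Rb genotype it was 6 (16.2%, against 4.73%), and 8 (21.6%, against 5.35%) under quantile normalization. With 1 Rbfl/+ tumour left out it ran from 4 to 6 (10.8% to 16.2%), against 3.31% to 10.4% of all genes. Signs turned, or the difference reached 0, for Lrp6, Lrp5 and Lef1 among the members named in full. Lrp6 between the models was 0.02 under quantile normalization, 0 among Rbfl/+ tumours and -0.13 to 0.04 with 1 tumour left out. For site, Lrp6 ran from -0.25 to 0 with 1 tumour left out. For Rb genotype, Lrp5 was 0.01 under median centring and 0.12 with model and site as covariates. With 1 tumour left out Lrp5 ran from -0.60 to 0.52 and Lef1 from -0.08 to 1.61. These ends came from leaving out an Rb+/+ tumour, so each rests on the other one alone. The cause of the turned signs was not tested. Fzd6 kept a difference between 0.90 and 1.37 and Fzd9 between 0.53 and 0.80 with 1 tumour left out. No paired analysis was possible because the replicate numbers used here only name the tumours of each model and the labels pair none of them. The number of arrays limits precision, and with 2 Rb+/+ tumours and 1 to 2 tumours outside the tibia per model, single tumours weigh heavily. Leaving out shRNA OS replicate 2 around Fzd6 and Wnt16, chosen after seeing the data, gave 17 and 13 of 20 neighbours higher in shRNA OS.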
